A study of Arabidopsis thaliana with 6 samples.

Results

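The ATG genes described here are the autophagy genes whose symbol in the platform annotation begins with ATG and a digit, each read by a probe set that names that gene alone. Of the 13355 genes named in this way on the array, 8 met the rule. They were ATG3 and the 7 ATG8 genes ATG8B, ATG8C, ATG8D, ATG8E, ATG8F, ATG8G and ATG8H, so the set is in effect an ATG8 family with 1 enzyme that acts on it. Each was represented by 1 probe set, and all 8 lay well above background. The peak of the low log2 values, taken as background, lay between 2.17 and 2.19 on the 6 arrays.

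RNA came from whole seedlings of Arabidopsis thaliana, accession Columbia (Col-0), aged 10 days and grown at 22 °C on Murashige and Skoog plates of reduced strength, with light for 24 h per day. Wild type and the sdg2 mutant were each profiled on 3 arrays. The mutant carries a mutation in SET DOMAIN GROUP 2, which encodes an enzyme that trimethylates lysine 4 of histone H3. The labels do not name the sdg2 allele, give no treatment, and call the samples of a genotype biological replicates without saying how plants were pooled, so a p-value here reflects the spread between the 3 samples of a group, some of which may be technical. A whole seedling is a mixture of tissues, and fewer cells of a type and less RNA per cell cannot be told apart.

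Autophagy is the route by which a plant cell encloses cytoplasm, organelles or aggregates in a double membrane, the autophagosome, and delivers them to the vacuole for breakdown. ATG8 is a small ubiquitin-like protein that becomes attached to the lipid phosphatidylethanolamine in the growing membrane, where it helps the membrane expand and binds cargo receptors. ATG7 activates ATG8, ATG3 transfers it to the lipid, and the protease ATG4 first trims most ATG8 forms at a terminal glycine. In Arabidopsis the ATG8 genes form a family, and autophagy is known for recycling nutrients in starved or ageing leaves.

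Setting sdg2 against wild type addresses how transcript levels differ when this enzyme is mutated. ATG8E was the ATG gene with the largest change and fell by 1.38 ± 0.05 in sdg2 (log2 scale, SE, 3 arrays in each group). ATG8C and ATG8F also fell, by 0.61 and 0.53, and ATG8D rose by 0.30. ATG8B, ATG8G, ATG8H and ATG3 did not pass. A gene was called changed at a Benjamini-Hochberg adjusted p below 0.05 in limma over all 22746 probe sets tested. Of the 8 ATG genes, 3 were lower and 1 was higher, while 17.6% of all probe sets were called lower and 19.0% higher. Over all named genes 16.6% were lower and 15.2% higher. Among named genes with a mean of 7 or above, a level chosen after seeing that all 8 ATG genes exceed it, 32.5% were lower and 27.7% higher, so 3 lower of 8 is close to the background of genes in that range. The median change of the 8 genes was -0.30, beside -0.01 over all named genes. The latter covers genes of every level, dim ones included, and no median was taken for genes with a mean of 7 or above.

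ATG8E was read at log2 values of 10.43, 10.38 and 10.42 in the wild type arrays and at 8.97, 8.97 and 9.14 in the sdg2 arrays. All 3 sdg2 values lay far below all 3 wild type values, and the spread within a genotype was at most 0.10 (SD). The mean went from 10.41 ± 0.03 (SD, n = 3) to 9.03 ± 0.10, a 2.61-fold difference that left 38.4% of the wild type signal (limma, adjusted p = 6.26e-05). The 95% confidence interval of the change ran from -1.52 to -1.24. ATG8E was the only one of the 8 past 2-fold, a size of fall called for 5.51% of all probe sets. Ranked from the most negative change, it stood at place 365 among the 13355 named genes, with no test of that place.

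ATG8C gave 9.96, 9.85 and 9.97 in wild type and 9.35, 9.15 and 9.44 in sdg2. Its groups were separate, and it fell by 0.61 ± 0.09, to 65.4% of wild type (limma, adjusted p = 0.00387). ATG8F gave 12.29, 12.31 and 12.15 in wild type and 11.63, 11.81 and 11.72 in sdg2. It fell by 0.53 ± 0.07, to 69.1% of wild type (limma, adjusted p = 0.00256), and its groups did not overlap either. Values of different genes are not compared in level here, since probe sets bind with different strength. ATG8B gave 8.87, 8.82 and 8.82 in wild type and 8.33, 8.52 and 8.70 in sdg2. The groups were separate but the sdg2 arrays differed among themselves, and the change of -0.32 ± 0.10 did not pass (limma, adjusted p = 0.0532), with an interval from -0.57 to -0.08. It passed without sdg2 replicate 3, the array nearest to wild type, at -0.41 (adjusted p = 0.0128), and also with median centring, with the filter on dim probe sets and with a variance trend (adjusted p of 0.0218 to 0.0325). Its adjusted p ran from 0.0128 to 0.144 over all alternatives.

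ATG8D and ATG8G had higher values in sdg2. ATG8D gave 7.94, 8.10 and 8.11 in wild type and 8.37, 8.30 and 8.38 in sdg2, with no overlap. It rose by 0.30 ± 0.06, a 1.23-fold difference (limma, adjusted p = 0.0107). ATG8G gave 7.54, 7.48 and 7.56 in wild type and 7.62, 7.86 and 7.75 in sdg2. All sdg2 values again lay above all wild type values, yet the change of 0.21 ± 0.07 did not pass (limma, adjusted p = 0.0673, interval from 0.04 to 0.39). Without sdg2 replicate 1, the array nearest to wild type, it passed at 0.28 (adjusted p = 0.0205), and over all alternatives its adjusted p ran from 0.0205 to 0.176.

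ATG8H differs from the ATG8 genes above in that its protein is known to end in the exposed glycine and so needs no trimming by ATG4. It gave 7.89, 8.05 and 7.98 in wild type and 7.51, 7.91 and 7.68 in sdg2. This was the only one of the 8 genes whose groups overlapped, through sdg2 replicate 2, and its change of -0.27 ± 0.11 did not pass (limma, adjusted p = 0.127, interval from -0.55 to 0.01). Without that array it passed at -0.38 (adjusted p = 0.0282), and its adjusted p ran from 0.0282 to 0.284 over all alternatives. ATG3, the enzyme that joins ATG8 to its lipid, gave 9.04, 9.13 and 9.18 in wild type and 8.97, 8.97 and 9.03 in sdg2. The lowest wild type value, 9.04, lay just above the highest sdg2 value, 9.03, and the change of -0.13 ± 0.04, 91.7% of wild type, did not pass (limma, adjusted p = 0.0881). Median centring and the omission of wild type replicate 1 each brought it past the threshold at -0.16 (adjusted p of 0.0414 and 0.0374), and over all alternatives its adjusted p ran from 0.0374 to 0.215. Of the 8 genes, 7 thus had groups that did not overlap, against 48.3% of all probe sets. That share includes dim probe sets and was not computed for genes with a mean of 7 or above, so the count is not read as an excess.

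**Figure D1:**
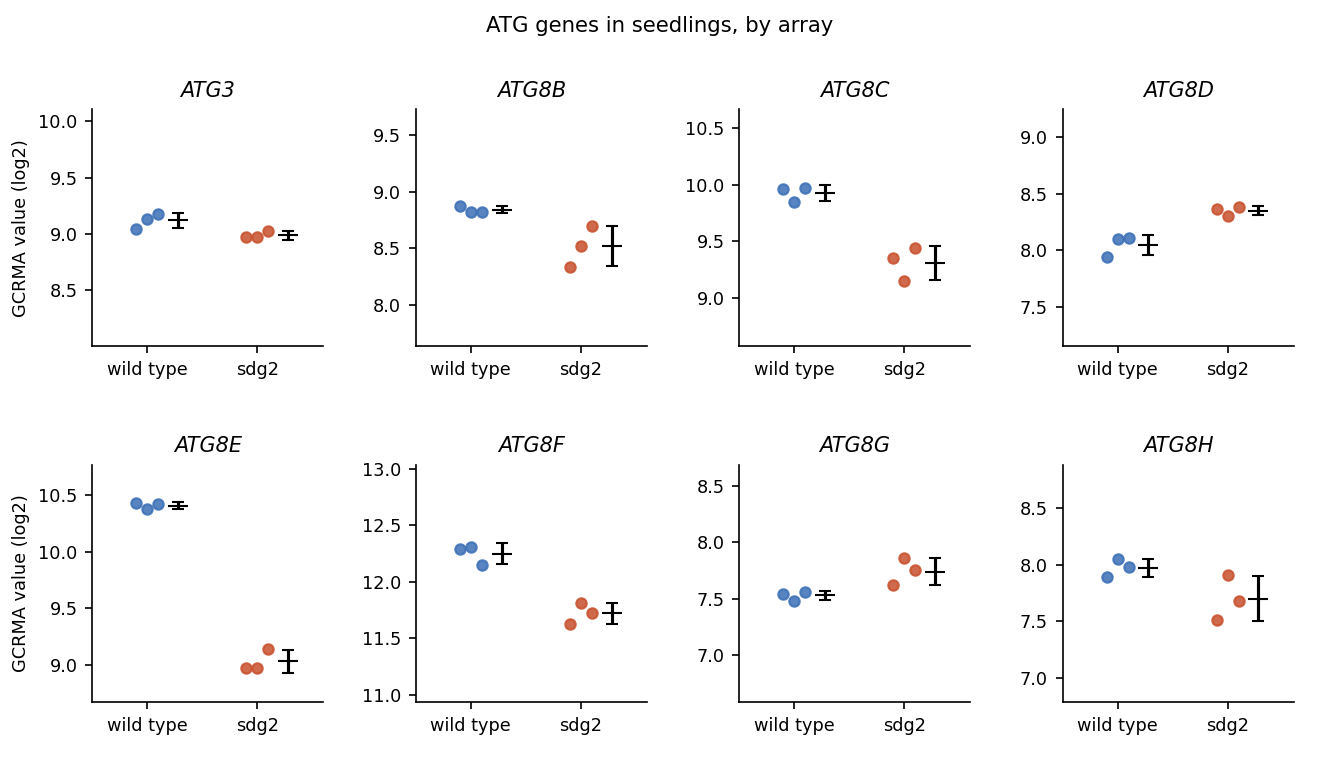
GCRMA values on the log2 scale (vertical axes, each spanning the same range but centred on its gene) of the 8 ATG genes in the 3 wild type arrays (blue) and the 3 sdg2 arrays (orange), with the mean and SD in black beside the points. ATG8E shows the widest gap, from 10.41 in wild type to 9.03 in sdg2, and ATG8H is the only gene whose groups overlap.

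The within-array difference between 2 ATG genes was compared between the genotypes for all 28 pairs, which asks whether their changes were unequal and does not compare their levels. The groups did not overlap in 22 of the 28 pairs, among them all 7 pairs with ATG8E, while the same held for 74.1% of all pairs of named genes with a mean of 7 or above, so the count is close to that background. An exact two-sided permutation test of 3 against 3 arrays cannot go below p = 0.1, and the lowest value adjusted over the 28 pairs was 0.127, so none could pass. The change of ATG8D exceeded that of ATG8E by 1.68 ± 0.08 (SE, not moderated), and the change of ATG8E minus that of ATG8G was -1.59 ± 0.09. ATG8C came nearest to ATG8E, with a change that exceeded it by 0.77 ± 0.06. The change of ATG8C minus that of ATG8F was -0.08 ± 0.15, and that of ATG8D minus that of ATG8G was 0.09 ± 0.11, differences within their errors.

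**Figure D2:**
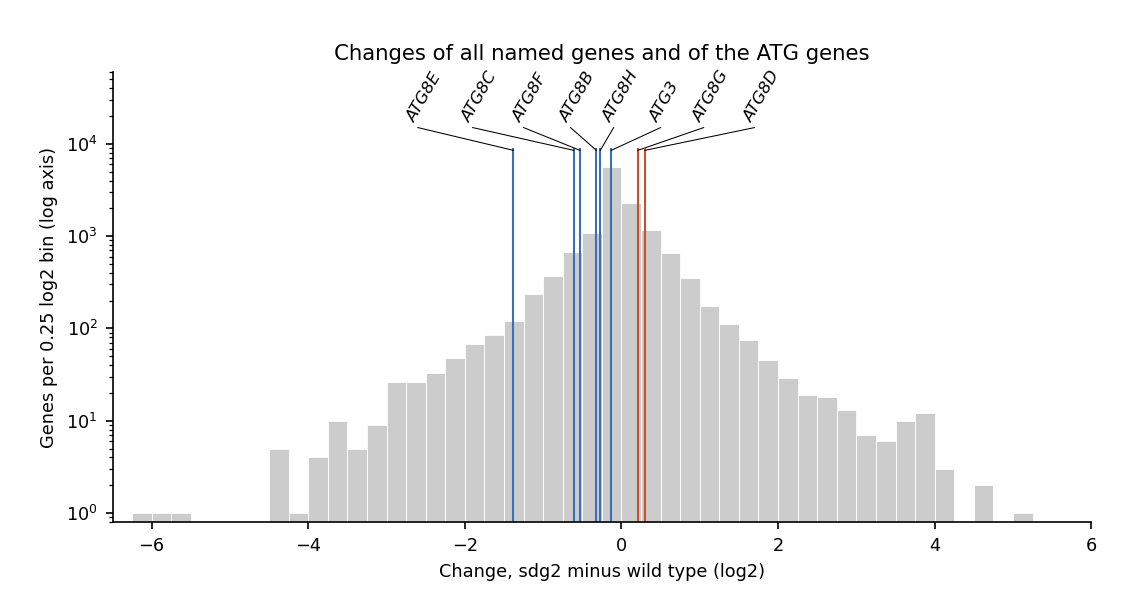
Number of named genes (log axis) in each bin of change between sdg2 and wild type on the log2 scale, with the 8 ATG genes drawn as lines, blue for negative and orange for positive changes. ATG8E at -1.38 stands apart from the other 7, which lie between -0.61 and 0.30.

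The 2 remaining ATG8 genes of a family of 9 carry older symbols and so fall outside the rule. APG8A, an older name of ATG8A, fell by 0.34 ± 0.07, from 9.67 ± 0.14 (SD, n = 3) to 9.34 ± 0.01 (limma, adjusted p = 0.0192). This call was lost without wild type replicate 3 or without any one of the sdg2 arrays (adjusted p of 0.057 to 0.0621). The locus AT3G15580, listed as APG8H with the synonym ATG8I and distinct from ATG8H, fell by 0.44 ± 0.07, from 10.88 ± 0.10 to 10.44 ± 0.10 (limma, adjusted p = 0.00767). Like ATG8H it is known to encode a form that ends in the exposed glycine. Over all 9 ATG8 genes, 5 fell, 1 rose and 3 did not pass, with a median change of -0.34. Counted in either direction, this is near the 60.2% called among named genes with a mean of 7 or above, as all 9 are. By direction it leans to falls, since 32.5% of those genes were lower and 27.7% higher. That lean was not tested.

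Outside the ATG8 genes, most of the measured autophagy loci did not pass. Of 42 loci on a list of autophagy machinery drawn up by locus, 20 have a probe set naming them alone. Of these 20, 7 changed, a share near the 36.6% of all probe sets called in either direction. By direction 6 were lower, 5 of them ATG8 genes already counted above, and 1 was higher. Over all probe sets 17.6% were lower and 19.0% higher, and among named genes with a mean of 7 or above 32.5% and 27.7%. Most but not all of the 20 loci reach that level, so the count is not read as an excess of falls. It was not tested. Of the 11 that are not ATG8 genes, ATG3 included, 1 fell and 10 did not pass, with a median of 0.15. An unadjusted p below 0.05 in limma was found for 2 of the 11. The same held for 5190 of the 13355 named genes and 9953 of the 22746 probe sets. The fall was that of AT5G50230, from 8.13 ± 0.08 (SD, n = 3) to 7.62 ± 0.07, by 0.50 ± 0.06 (limma, adjusted p = 0.00187). AT5G66930, listed with the synonym ATG101 and known as a subunit of the kinase complex that starts autophagy, had a change of -0.19 ± 0.15. AT3G59950 had a change of 0.03 ± 0.03, with an interval from -0.05 to 0.12, and AT1G49180 one of -0.05 ± 0.05. AT3G53930 had the largest positive value, 0.72 ± 0.39, with an SD of 0.74 among its wild type arrays. AT3G61960, AT2G37840, AT2G32760 and AT1G77890 had changes between 0.15 and 0.23. AT3G18770 had a change of 0.33 ± 0.17, from means of 2.86 and 3.19, close to background. AT1G49180, with means of 4.73 and 4.68, and AT1G77890, with 4.38 and 4.54, also had low values. For such loci, and for those with a wide spread, a change that did not pass does not show that the transcript was unaffected. Except for ATG3 and ATG101 these loci carry no name in the annotation used here and are given by locus. The list drawn up by locus holds AT5G50230 as ATG16 and AT3G59950 as ATG4B, both under conjugation. It places AT3G61960, AT3G53930, AT2G37840, AT1G49180 and AT3G18770 in the kinase complex that starts autophagy. These list names were not checked against the annotation.

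The protein kinases that set the rate of autophagy were read through 4 of 12 listed subunits, and all 4 changed, 3 higher and 1 lower, with a median of 0.34, beside 36.6% of all probe sets called in either direction. With 4 genes, 3 of whose calls were lost in some alternatives, the count carries little weight. The kinase SnRK1 is known to favour autophagy when energy is short, and the kinase TOR to restrain it when nutrients are plentiful. AKINBETA1, a beta subunit of SnRK1, gave 11.21, 11.30 and 11.25 in wild type and 8.89, 8.89 and 9.00 in sdg2. It fell by 2.33 ± 0.04, a 5.03-fold difference (limma, adjusted p = 1.05e-05), and kept that call in all 14 alternatives. AT4G16360, listed with the synonym KINbeta2 and another beta subunit, rose by 0.34 ± 0.07 (limma, adjusted p = 0.0187), a call lost without sdg2 replicate 1 or 3 (0.0525 and 0.0567). RAPTOR1 and RAPTOR2 encode the partner that presents substrates to TOR. RAPTOR1 rose by 0.34 ± 0.07 (limma, adjusted p = 0.0167), a call lost with a variance trend (0.0624) and without wild type replicate 2 or 3 (0.0556 and 0.0536). RAPTOR2 rose by 0.68 ± 0.19 from 4.25 to 4.94 (limma, adjusted p = 0.042). That call was lost whichever array was left out (0.0564 to 0.106) and in 3 further alternatives.

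Vacuolar processing enzymes, proteases known to mature other enzymes in the vacuole where autophagy ends, were 4 of 8 listed vacuolar proteases and the only ones measured. BETA-VPE rose by 1.34 ± 0.10, from 5.50 ± 0.16 (SD, n = 3) to 6.84 ± 0.11 (limma, adjusted p = 0.000483). GAMMA-VPE, a form of vegetative tissue, rose by 0.96 ± 0.06, from 10.06 ± 0.11 to 11.03 ± 0.03 (limma, adjusted p = 0.000252). ALPHA-VPE lay near background, with 3.16 and 3.29, and DELTA-VPE at background, with 2.07 in both groups. The median of the 4 was 0.55. These rises ran opposite in sign to the falls of ATG8E, ATG8C and ATG8F, but had the same sign as the rise of ATG8D. With 2 of 4 called higher, beside 19.0% of all probe sets, the count carries little weight. A link between the VPE and ATG8 changes was not tested. Of 10 listed endosomal trafficking partners 3 were measured, of which AT3G43230 fell by 0.43 ± 0.08 (limma, adjusted p = 0.0117) and neither AT4G34660, at -0.16, nor VPS46.2, an ESCRT subunit, at -0.02, passed. Their median was -0.16. The count of 1 lower among these 3 carries little weight. It stands beside 17.6% of all probe sets and 32.5% of named genes with a mean of 7 or above called lower. The lists of cargo receptors (7 loci), of transcription factors tied to ATG genes (4) and of dark- and starvation-induced genes (4) had no locus with a probe set naming it alone in the tables used here and were not analysed here.

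**Figure D3:**
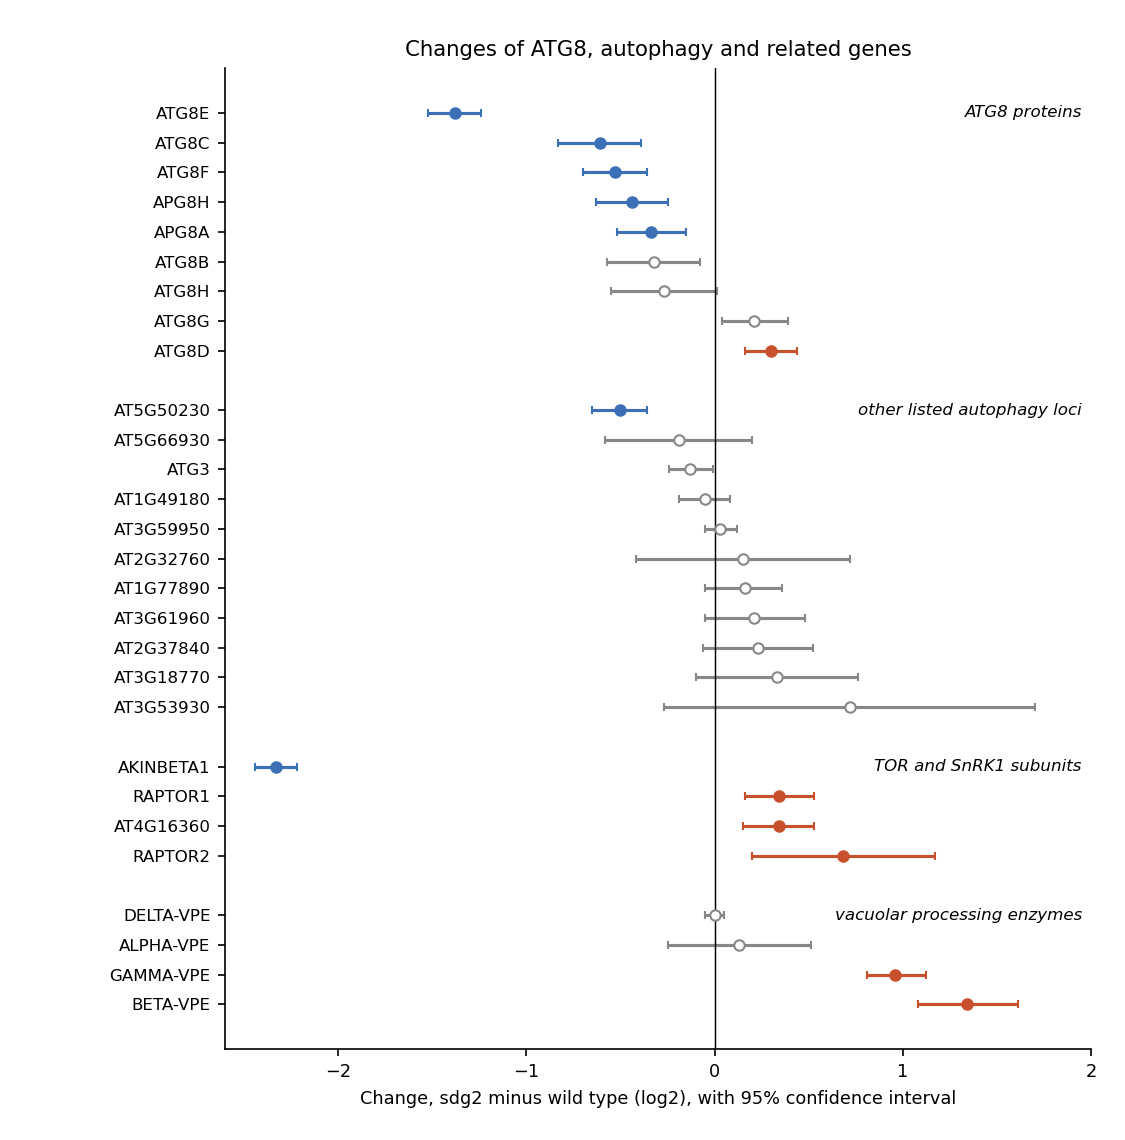
Change between sdg2 and wild type on the log2 scale (horizontal axis), with its 95% confidence interval from limma, for the 9 ATG8 genes, the 11 other measured autophagy loci, 4 TOR and SnRK1 subunits and 4 vacuolar processing enzymes. Filled blue points were called lower, filled orange points higher, and open grey points did not pass. AKINBETA1 at -2.33 and ATG8E at -1.38 lie farthest to the left, and BETA-VPE at 1.34 farthest to the right.

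The genes most like ATG8E were sought among 6901 named genes with a mean of 5 or above, as those with the smallest root mean square difference from it over the 6 arrays after each profile was centred on its own mean. None of the 5 nearest was an autophagy gene on the list. AT1G03610 was the nearest, at a difference of 0.046 log2 units, and went from 10.01 to 8.66. AT5G56140, AT4G28290, AT5G60680 and AT5G63190 followed, at 0.050 to 0.060. All 5 were lower in sdg2, with changes of -1.37 to -1.29, and so had nearly the same contrast between genotypes, which over 6 arrays in 2 groups makes up most of this likeness. Among the ATG genes ATG8C came closest, at 0.390 and place 924 of 6901, followed by ATG8F at 0.436 and place 1165. ATG8D was the least like it, at 0.844 and place 4950.

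**Figure D4:**
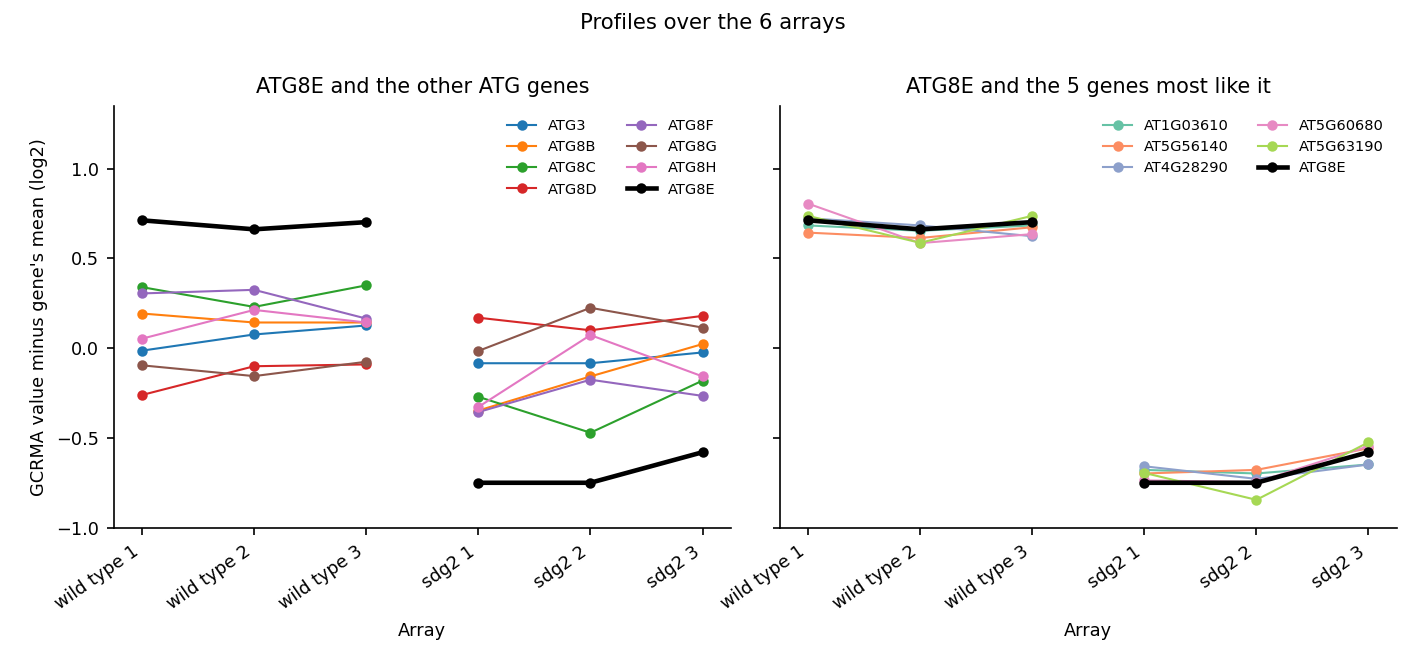
Value of each gene minus its own mean over the 6 arrays (log2, vertical axis) by array, with ATG8E in black beside the other 7 ATG genes (left) and beside the 5 named genes with the most similar profile (right). Lines join arrays of 1 genotype only to guide the eye. The 5 genes at right have changes of -1.37 to -1.29, close to ATG8E, whereas at left the largest other change was that of ATG8C, which fell by 0.61.

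The surroundings of the 8 ATG genes in the order of protein-coding genes were read from the gene table of assembly TAIR10.1. ATG8E directly follows HAM1, and ATG8G directly follows HAM2, transcription regulator genes of 1 family. ATG8E fell, whereas ATG8G did not pass. Of 16 direct neighbours 7 had a probe set naming them alone, of which 3 fell and 2 rose, beside 36.6% of all probe sets and 60.2% of named genes with a mean of 7 or above called in either direction. AT2G45180, on the other side of ATG8E, fell by 1.06 ± 0.06, from 13.52 to 12.46 (limma, adjusted p = 0.000196). AT4G04630, beside ATG8B, fell by 1.86 ± 0.04, and AT1G62045, beside ATG8C, by 1.18 ± 0.16. AT3G06410, beside ATG8H, rose by 0.58 ± 0.05. ATG3 was the only one of the 8 to overlap other genes in that table, AT5G61490 and AT5G61510. AT5G61510 rose by 1.01 ± 0.08 while ATG3 had its change of -0.13, and whether either probe set reads the other gene's transcripts was not tested. These neighbours were taken for their position alone, outside the rule for named genes.

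Over the whole series, 36.6% of probe sets were called changed. Pearson correlations over all probe sets were 0.997 to 0.998 within a genotype and 0.970 to 0.971 between genotypes. The tissue markers on the list were read through 6 of 13 genes, with 3 lower, 3 not called and a median of -0.33. The leaf markers RCA, LHCB4.1 and LHCB4.2 lay between 13.50 and 14.28 in both genotypes, and LHCB4.2 fell by 0.77. The root marker PYK10 fell by 0.33, from 13.46 to 13.13, a call lost in 7 alternatives, with an adjusted p of 0.109 to 0.122 where wild type replicate 2, wild type replicate 3, sdg2 replicate 1 or sdg2 replicate 3 was omitted. EXPA18 fell by 0.33, and EXPA7, at -0.75 ± 0.31, did not pass. The part of tissue make-up in the ATG8 changes was not tested. SDG2 itself has no probe set naming it alone in these tables, and its own level was not analysed here as a check of the labels.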

How the data were processed

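The deposited values are log2 values from 1-colour Affymetrix arrays, 1 column per array. Per the submitters' processing notes the authors processed them with GCRMA (version not given in the sources used here). That method normalizes quantiles between arrays, so a global shift cannot be seen. Of 22810 probe sets, 64 Affymetrix controls were left out. Of the 22746 tested, 13513 name 1 gene, 503 several and 8730 are not listed. The brightest probe set stood for a gene.

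The genotypes were tested against each other in limma 3.58.1 under R 4.3.3 (lmFit, eBayes, no covariate), checked on simulated data, with Benjamini-Hochberg adjustment over all 22746. Errors of changes are moderated SEs. The number of arrays limits the precision.

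Members and lists were chosen with earlier results of these data known. Named were all members, all measured loci of the autophagy machinery list, up to 2 rises and 2 falls of each other list (or its largest change where none passed), and the 5 genes nearest to ATG8E; other listed genes were added after their values were seen. Alternatives were quantile normalization, median centring, eBayes with a variance trend and robust, a filter (5 or above on at least 3 arrays), unmoderated statistics, only probe sets naming 1 gene, averaging the probe sets of a gene, a replicate block and omission of each array. Figures were drawn with matplotlib 3.10.9.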

Additional observations from a re-analysis of the deposited data

How the results depend on the processing

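The calls for ATG8C, ATG8D, ATG8E and ATG8F held in all 14 alternatives, with changes of -0.68 to -0.53, 0.24 to 0.33, -1.44 to -1.35 and -0.58 to -0.48. The 4 ATG genes that did not pass kept their direction. Of the 14 alternatives, ATG8B passed in 4, ATG3 in 2, and ATG8G and ATG8H in only 1 each. With median centring, which moved the median of all probe sets to -0.05, ATG3 passed at -0.16 and ATG8B at -0.36, so that 5 ATG genes were lower. ATG8B also passed at -0.32 with the filter on dim probe sets and with a variance trend. Leaving out each array in turn gave -0.16 to -0.09 for ATG3, -0.41 to -0.23 for ATG8B, 0.15 to 0.28 for ATG8G, -0.38 to -0.18 for ATG8H and 1 to 2 ATG genes higher. At 2-fold or more, 1 ATG gene was lower and 0 were higher in limma. With only probe sets naming 1 gene, which leaves fewer to test, 4114 passed, 2155 lower and 1959 higher. Of the values that did not pass, AT2G32760 turned negative without wild type replicate 2 (-0.06 to 0.33 over single omissions), ALPHA-VPE without sdg2 replicate 1 (-0.04 to 0.22) and VPS46.2 positive without wild type replicate 3 (-0.09 to 0.03); the cause was not tested. EXPA7 passed with the filter, the block and without wild type replicate 3. Replicate numbers are shared between genotypes, but deviations of same-numbered arrays correlated at only -0.01, 0.07 and 0.06, and 4 of 6 arrays correlated best with their own number. With the replicate block 7865 probe sets passed, and the ATG genes again gave 3 lower and 1 higher. GCRMA values carry no call of presence, which limits what can be said of genes near background.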
